A study of Rattus norvegicus with 65 samples.

Results

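Rat mammary tumors with high mRNA of 4 proliferation genes (Mki67, Top2a, Ccnb1 and Cdk1) were compared with tumors in which these mRNAs were low. The tumors were selected on a score, the mean log2 intensity of the 4 genes on each array. Of 65 arrays, the transplant 5 tumor of series 32 was left out because its array was dim, and the 16 arrays with the highest and the 16 with the lowest score formed the high-score and low-score groups. The other 32 arrays belonged to neither. The primary tumors had been induced with a carcinogen and then passed through syngeneic hosts, once per generation, for 5 transplant generations in 11 series numbered 10, 13, 17, 19, 25L, 25R, 32, 33, 34, 36 and 42. Series 10 has no transplant 5 array. Every array held 1 tumor of 1 generation, from frozen tissue, and all groups share the carcinogen-induced origin. The carcinogen, the rat strain, the site of transplantation and the age of the animals are not given in the sources used here, and neither is a growth rate. Fast and slow cycling is therefore a label for mRNA levels, not a measured doubling time.

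Dividing cells copy their DNA and then separate the copies at mitosis. Mki67 coats mitotic chromosomes and is the gene behind the Ki-67 stain used to grade breast tumors. Top2a untangles replicated DNA, while Ccnb1 and Cdk1 encode the cyclin and the kinase that together start mitosis. Growth before each division also needs nucleotides, lipids for membranes, ribosomes and energy, and the genes below are ordered by those roles.

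The score lay between 7.03 and 8.30 in the low-score group, with a median of 7.88, and between 8.95 and 9.69 in the high-score group, with a median of 9.21. These are log2 intensities, the array's measure of how much labelled RNA a probe set binds, and the groups cannot overlap because the score chose them. The highest low-score array was at 8.30 and the next array above it at 8.32, while the lowest high-score array was at 8.95 and the next below it at 8.91. High minus low was 1.54 for Mki67, 1.19 for Top2a, 1.66 for Ccnb1 and 1.33 for Cdk1. Because the rule used them, these 4 genes are given without a test. Genes that work with them moved in the same direction. Of 91 mitosis genes measured, 88 were higher in the high-score group, with a median difference of 0.66 log2 units, and 59 of 62 DNA replication genes and E2F targets were higher, with a median of 0.52. Without series 42 these counts were 86 and 56. These lists describe what the score captures, and all 157 of their measured genes are left out of the counts that follow.

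The score differed among series and generations. All 6 tumors of series 42 were in the high-score group, with scores from 8.97 to 9.59, and series 36 had none in either group. In 6 series both groups were represented. Series 34 supplied 3 high-score tumors, series 25L and 25R 2 each, and series 10, 13 and 17 1 each. The low-score group held 3 tumors each of series 13 and 32, 2 each of series 17, 19 and 25L, and 1 each of series 10, 25R, 33 and 34. Of the 11 primary tumors, 7 were in the low-score group and 1, that of series 42, in the high-score group, so the groups differ in generation as well as in score. The mean of the transplants exceeded the primary tumor by 0.55 ± 0.52 (SD over 11 series) and was higher in 10 of the 11 series (exact sign-flip permutation test, two-sided p = 0.00195, where 0.000977 is the smallest value possible). The labels call 25L and 25R the left and right of series 25 and do not say whether they share an animal. With both averaged the difference was 0.49 (p = 0.00391, exact sign-flip permutation test). The mean score was 8.14 ± 0.54 (SD, n = 11) in primary tumors and 8.997 ± 0.41 (SD, n = 9) in transplant 5 tumors. The dim transplant 5 array of series 32, left out here, had the lowest score, 6.64. Keeping it gave a difference of transplants over primary tumors of 0.52 (p = 0.0117, exact sign-flip permutation test). Series accounted for 36.2% of the variance of the score (permutation test of the F statistic, p = 0.0042).

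**Figure D1:**
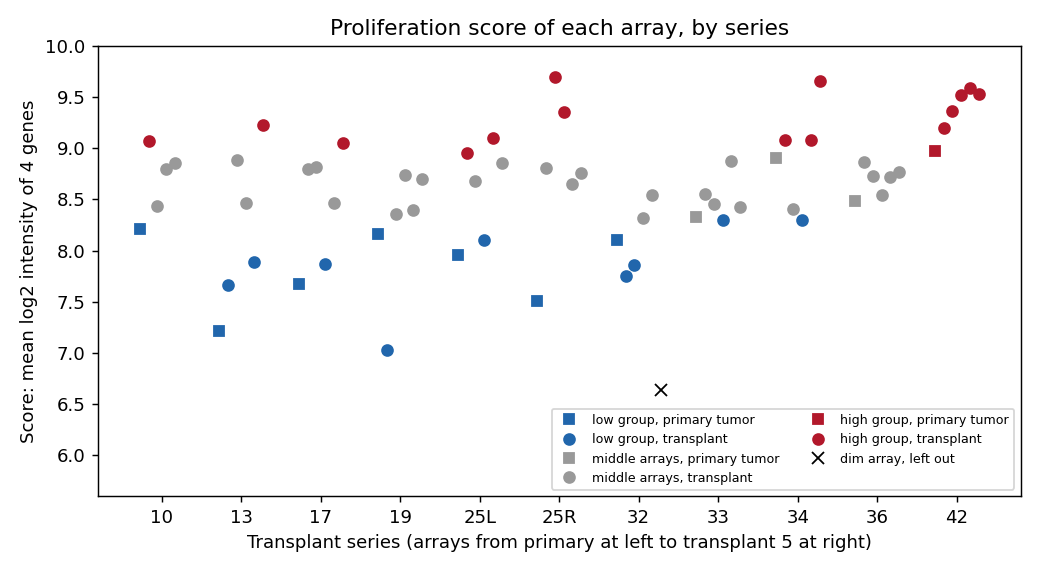
The score of each of the 65 arrays (y axis, log2 intensity) is shown by transplant series (x axis), from the primary tumor at the left to transplant 5 at the right of each series. Series 10 has no transplant 5. All 6 arrays of series 42 lie in the high-score group, at 8.97 or above, and 7 of 11 primary tumors (squares) lie in the low-score group.

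Markers of cell types were read on the same arrays. Series 42 had almost no luminal epithelial signal: Epcam, a surface protein of epithelial cells, was between 5.31 and 6.00 in its 6 tumors, where 5.31 is the floor set for the lowest intensities, and the mean of 26 luminal genes was between 5.89 and 6.26. In the 10 other high-score tumors that mean had a median of 9.39, but in the transplant 4 and transplant 5 tumors of series 34 it was 6.28 and 6.31, with Epcam at 5.83 and 5.31. In the low-score group the median was 9.53, and the transplant 3 tumor of series 34 stood apart at 6.33. Skeletal muscle genes were highest in the low-score transplant 3 tumor of series 25L, at a mean of 8.87 over 32 genes against a group median of 6.27. The high-score median was 6.70: the tumors of series 42 were at 6.87 to 7.74 and the transplant 3 tumor of series 25R at 7.95. Acta1, the actin of skeletal muscle, had medians of 5.31 in the low-score and 7.97 in the high-score group, and Ckm, another muscle marker, 6.28 and 6.65. Muscle genes did not rise as a list: in the fit described below, 12 of 14 tested were lower in the high-score tumors (median -0.07). The arrays also differed slightly in brightness: the median intensity before scaling was 166 ± 5.27 (SD, n = 16) in the low-score and 155 ± 10.2 (SD, n = 16) in the high-score group (permutation test, p = 0.00057). The permutation treated the arrays as independent, although the 6 tumors of series 42, all in the high-score group, lay at 143 to 147. The part of these differences in the results below was not tested, and values without series 42 are given beside the main results. In bulk tissue, fewer cells of a type and less RNA per cell cannot be told apart.

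Of 8342 genes outside the cell cycle lists, 559 (6.7%) were higher and 351 (4.21%) were lower in the high-score tumors. A gene counted as higher or lower, and is said below to have risen or fallen, at an adjusted p below 0.05 in limma, a linear model with moderated variances, with series as a random block and Benjamini-Hochberg adjustment over all 8499 genes tested. Differences below are the fitted high minus low values on the log2 scale, with a standard error (SE). Most were small: 18 genes rose and 24 fell at least 2-fold. Without series 42, 245 genes (2.94%) rose and 84 (1.01%) fell. Among the calls, 238 of the higher genes (42.6%) and 80 of the lower genes (22.8%) were also called without that series, and all 910 kept their sign. That fit used arrays that had also chosen the calls, so kept signs were likely beforehand. Leaving out series 13 or 25R lowered the number of genes that fell to 208 and 199. With series as a fixed block, which compares tumors only within the 6 series that held both groups, 170 genes rose and 71 fell, and with generation as a covariate 68 rose and 48 fell. Without the primary tumors 122 rose and 43 fell. With 1 value per series, from the 6 series that held both groups, 66 rose and 12 fell. Of all calls, 61.4% were rises, against 45.6% after quantile normalization and 48% with no rescaling, which moved the median of all genes to -0.053. The arrays of a series descend from 1 tumor and are not independent replicates. The labels do not say that series came from separate animals, and p-values measure the spread between these tumors.

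The 32 middle arrays, which the rule placed in neither group, gave a separate reading. Over their narrower range of scores, from 8.32 to 8.91, the slope of each gene on the score was fitted. One gene, Idi1 of the cholesterol pathway, passed the threshold upward (0.012% of genes tested), with a slope of 0.92 ± 0.22 log2 units per unit of score (SE, limma adjusted p = 0.0448). Calcoco1 and Ypel3 passed downward (0.024%), with slopes of -0.80 and -0.79. The number of calls changed with single series. No gene passed upward in limma when series 17, 25L, 25R, 32, 34 or 36 was left out. With any 1 series left out, 134 to 219 genes had a positive slope at an unadjusted p below 0.05. None passed downward without series 10, 19, 33 or 34. With series as a fixed block 2 passed upward and none downward (218 downward at an unadjusted p below 0.05). With the random block, 190 genes (2.28% of genes tested) had a positive and 143 (1.71%) a negative slope at an unadjusted p below 0.05. By chance a share of about 0.05 of genes would pass, both signs together, and these shares together are not above it. Of the 559 genes that rose in the high-score tumors, 497 (88.9%) had a positive slope in the middle arrays, against 50.6% of all genes. Of the 351 that fell, 286 (81.5%) had a negative slope, against 49.4%.

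**Figure D2:**
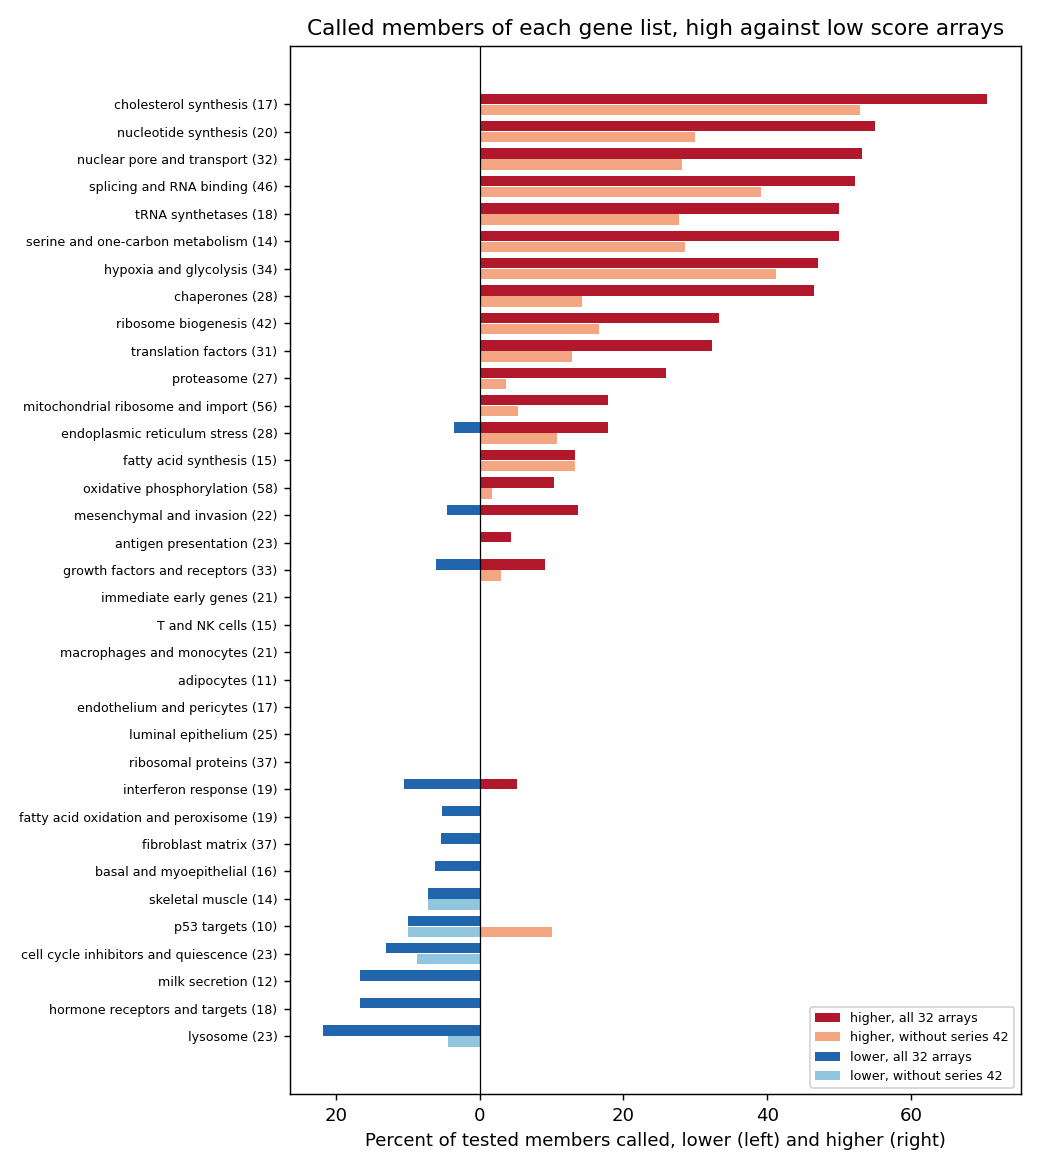
Bars give the percent of tested members of each gene list (number in parentheses) that rose (right) or fell (left) in the 16 high-score against the 16 low-score tumors, with all 32 arrays (dark) and without series 42 (light). Cholesterol synthesis has the longest bar, 12 of 17 members, and lysosomal genes the longest to the left, 5 of 23.

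Cholesterol synthesis genes were higher in the high-score tumors. Of 17 measured members 12 rose, none fell, and all 17 differences were positive, with a median of 0.47 against 0.004 for all genes. Cells make cholesterol from acetyl-CoA through mevalonate, and the SREBP transcription factors raise the genes of this pathway together when sterols run low. Insig1, the membrane protein that holds SREBP back in the endoplasmic reticulum and is itself an SREBP target, ranged from 6.29 to 8.57 in low-score tumors, with a median of 7.39, and from 7.82 to 9.48 in high-score tumors, with a median of 8.65. In 9 of the 16 high-score tumors it was above every low-score tumor. The difference was 1.29 ± 0.16 (SE, limma adjusted p = 7.75e-07), a 2.45-fold rise.

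Fdps, which makes the farnesyl diphosphate from which sterols and prenyl groups are built, ranged from 8.10 to 9.49 with a median of 8.998 in the low-score group. The high-score range was 8.94 to 11.12, with a median of 10.43, and 15 of 16 tumors exceeded every low-score tumor. The rise was 1.14 ± 0.16 (SE, adjusted p = 4.22e-06). Idi1, the isomerase just before Fdps, separated the groups as well: low-score values were 7.61 to 8.37 (median 7.94) and high-score values 8.07 to 10.14 (median 9.09), again with 15 of 16 tumors above the low-score range. Its difference was 1.02 ± 0.14 (SE, adjusted p = 2.7e-06), and a further Idi1 probe set gave 1.41. Msmo1, which removes methyl groups from sterol intermediates, went from 8.22 to 9.42 (median 8.65) in low-score tumors to 9.07 to 11.84 (median 10.30) in high-score tumors, with 10 of 16 above the low-score range. Its difference was 1.26 ± 0.22 (SE, adjusted p = 0.00022), and series 42, at 11.27 to 11.84, exceeded all other high-score tumors. Sqle, the squalene epoxidase, overlapped more: 6.23 to 9.25 (median 7.36) against 7.26 to 9.84 (median 8.87), a difference of 1.27 ± 0.25 (SE, adjusted p = 0.000815).

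The remaining members rose by less. They were Pmvk (0.69), Mvd (0.49), Dhcr7 (0.47), Mvk (0.36), Ebp (0.32), Sc5d (0.30) and Lss (0.28), enzymes from the start to the end of the pathway. Cyp51 (0.47), Tm7sf2 (0.20), Srebf2 (0.19), Nsdhl (0.07) and Fdft1 (0.06) did not pass the threshold. Acat2, a thiolase that makes acetoacetyl-CoA and lies outside the list, rose by 1.31 ± 0.22 (SE, adjusted p = 0.000103). Without series 42, 9 of the 17 members rose, with differences of 1.38 for Insig1, 1.08 for Fdps, 0.94 for Idi1, 0.97 for Msmo1 and 1.17 for Sqle. With series as a fixed block 7 rose, with generation as a covariate 4, and without primary tumors 7. In the middle arrays 15 of 17 slopes were positive. Fatty acid synthesis, which a related SREBP protein controls, had 2 of 15 members higher: Elovl6, an elongase, by 0.49, and Scd2, a desaturase, by 0.49. Further Scd2 probe sets gave 0.17 and 0.19. None of the 15 passed with generation as a covariate.

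The bases before the start of cholesterol genes that moved together are shown for 4 genes of the list that rose by more than 1 log2 unit. Sqle, which also rose by more than that (1.27), is not shown. CCAAT, the letters that the factor NF-Y recognises and that often lie beside SREBP sites, was searched on both strands in the 250 bases before the start of each gene (RefSeq, GRCr8) and is in capitals, as CCAAT or, on the opposite strand, ATTGG. The window of Insig1 lies at chr4:8057770-8058019, minus strand, that of Fdps at chr2:176804817-176805066, minus strand, that of Idi1 at chr17:66547525-66547774, minus strand and that of Msmo1 at chr16:29746863-29747112, plus strand.
Insig1: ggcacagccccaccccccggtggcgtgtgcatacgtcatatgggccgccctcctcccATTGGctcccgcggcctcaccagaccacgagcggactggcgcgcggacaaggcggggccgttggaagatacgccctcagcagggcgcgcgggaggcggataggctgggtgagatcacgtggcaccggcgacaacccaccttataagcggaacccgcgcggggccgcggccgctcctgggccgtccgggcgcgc
Fdps: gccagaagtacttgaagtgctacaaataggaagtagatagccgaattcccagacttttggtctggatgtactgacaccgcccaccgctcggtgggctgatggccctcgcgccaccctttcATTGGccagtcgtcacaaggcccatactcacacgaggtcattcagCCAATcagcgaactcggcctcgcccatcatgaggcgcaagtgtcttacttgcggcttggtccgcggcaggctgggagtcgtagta
Idi1: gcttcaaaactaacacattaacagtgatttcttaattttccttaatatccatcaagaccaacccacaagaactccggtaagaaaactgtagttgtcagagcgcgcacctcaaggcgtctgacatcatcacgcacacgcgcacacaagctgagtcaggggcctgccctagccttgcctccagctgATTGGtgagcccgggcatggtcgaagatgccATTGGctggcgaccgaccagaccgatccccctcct
Msmo1: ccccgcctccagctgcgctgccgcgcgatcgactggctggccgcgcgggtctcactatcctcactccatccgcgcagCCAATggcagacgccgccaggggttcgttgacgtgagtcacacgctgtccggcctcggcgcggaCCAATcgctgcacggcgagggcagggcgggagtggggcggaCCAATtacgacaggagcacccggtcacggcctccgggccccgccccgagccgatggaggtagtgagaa
Insig1 held 1 match, Fdps and Idi1 2 each, and Msmo1 3. Of 14 list members with a promoter in the table, 12 (85.7%) held CCAAT, against 34.0% of all 33469 promoters and 35% of the promoters of tested genes. Among mitosis genes the share was 62.0%, in 49 of 79 promoters, and among hypoxia and glycolysis genes 30.0%. A stricter SREBP-type motif, TCACNCCAC, was in 0 of the 14 windows and in 1.0% of all promoters. A match is a description of letters, not a binding site.

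Serine, one-carbon and polyamine genes rose in 7 of 14 cases and none fell, with a median difference of 0.39. Psat1, the aminotransferase in serine synthesis, had the second-largest rise under the rule for named genes. It ranged from 6.21 to 9.35 (median 7.06) in the low-score group and from 8.20 to 10.75 (median 9.39) in the high-score group, a difference of 1.75 ± 0.24 (SE, adjusted p = 5.15e-06) or 3.37-fold. In 8 of 16 high-score tumors, 6 of them those of series 42, it exceeded every low-score tumor. Without series 42 the Psat1 difference was 1.58, which still passed. Phgdh, the first enzyme of the same route, rose by 0.79, Shmt2, the mitochondrial enzyme that takes a carbon from serine, by 0.68, and Ahcy, which clears S-adenosylhomocysteine, by 0.55. Odc1 and Sms, enzymes of polyamine synthesis, rose by 0.76 and 0.70. Psph, the last enzyme of serine synthesis, was at 0.10 and did not pass. Without series 42, with the fixed block, with generation as a covariate and without primary tumors, 4, 5, 3 and 4 of the 14 rose.

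Nucleotide synthesis genes rose in 11 of 20 cases and none fell (median 0.33). The largest differences were those of Dctpp1, which clears unusual dCTP derivatives, at 0.65, Prps1, which makes the ribose phosphate used for all nucleotides, at 0.55, Uck2, a uridine-cytidine kinase, at 0.46, and Ppat, the first committed enzyme of purine synthesis, at 0.45. Prps1 ranged from 7.76 to 8.64 (median 8.29) in low-score tumors and from 8.35 to 9.80 (median 8.81) in high-score tumors. In 12 of the 16 high-score tumors Prps1 was above the low-score range (adjusted p = 0.00145). The pyrimidine enzymes Cad, Umps and Dhodh rose by 0.40, 0.37 and 0.34. The salvage enzymes Dck (0.06) and Aprt (-0.06) did not pass. Without series 42 6 rose, with the fixed block 5, with generation 2 and without primary tumors 4.

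RNA processing and nuclear transport genes were higher in the high-score tumors. Of 46 splicing and RNA-binding genes 24 rose and none fell (median 0.28), and of 32 nuclear pore and transport genes 17 rose and none fell (median 0.31). Hnrnpa1, which binds nascent transcripts and steers splice site choice, ranged from 8.76 to 10.05 (median 9.601) in the low-score and from 9.87 to 10.67 (median 10.19) in the high-score group. Its difference was 0.77 ± 0.10 (SE, adjusted p = 1.14e-06), with 11 of 16 high-score tumors above the low-score range, and series 42, at 9.89 to 10.23, was not the highest. The 2 further Hnrnpa1 probe sets gave 0.14 and 0.25. Snrpa and Snrpa1, proteins of the U1 and U2 splicing particles, rose by 0.88 and 0.84, and Lsm2, of the protein ring bound to U6 RNA, by 0.75.

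Nup133, a scaffold protein of the nuclear pore, was at 5.31 to 6.63 (median 5.87) in low-score tumors and at 5.96 to 7.74 (median 6.94) in high-score tumors. The difference of 0.93 ± 0.15 (SE, adjusted p = 3.78e-05) is a fold of 1.91, and 13 of 16 high-score tumors exceeded the low-score range. Nup205, a protein of the inner pore ring, rose by 0.79, Kpnb1, an importin, by 0.69, Ipo5 by 0.63 and Xpo1, the main export receptor, by 0.59. Without series 42, 18 of the 46 splicing and 9 of the 32 transport genes rose. The corresponding counts were 15 and 9 with the fixed block, 10 and 5 with generation as a covariate, and 11 and 8 without primary tumors. Pore proteins also serve mitosis, when the nuclear envelope is taken apart, although these genes are not on the mitosis list.

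Part of the genes for building ribosomes rose, while the ribosomal proteins themselves gave no call. Of 42 ribosome biogenesis genes 14 rose (median 0.25), among them Fbl, which methylates ribosomal RNA, at 0.74, Nolc1 at 0.68, Nhp2 at 0.62 and Ncl, nucleolin, at 0.60. Further Nolc1 probe sets gave 0.27 and 0.36. Fbl ranged from 8.02 to 9.14 (median 8.47) in the low-score and from 8.58 to 10.53 (median 9.43) in the high-score group, with 11 of 16 above the low-score range (adjusted p = 0.000655). None of 37 ribosomal protein genes rose or fell in limma (3 up and 2 down at an unadjusted p below 0.05), and their median difference was 0.04. The difference between these lists was not tested. tRNA synthetases, which charge tRNAs with amino acids, rose in 9 of 18 cases (median 0.27), led by Yars1 at 0.55 and Gars1 at 0.44. Translation factors rose in 10 of 31 (median 0.24), led by Eif2s1 at 0.45, a subunit of the factor that brings the initiator tRNA to the ribosome.

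Protein folding and degradation genes followed. Chaperones rose in 13 of 28 cases (median 0.29): Tcp1 and Cct2, subunits of the ring that folds actin and tubulin, rose by 0.57 each, and the mitochondrial chaperonin Hspd1 by 0.57. Proteasome genes rose in 7 of 27 (median 0.23), genes of mitochondrial ribosomes and import in 10 of 56 (median 0.17), and oxidative phosphorylation genes in 6 of 58 (median 0.11). No member of these lists fell. Over all genes the share that rose went from 6.7% to 2.94% without series 42. In that fit 7 ribosome biogenesis, 5 synthetase, 4 translation factor, 4 chaperone, 1 proteasome, 3 mitochondrial ribosome and 1 oxidative phosphorylation gene rose. With series as a fixed block these counts were 5, 3, 0, 3, 0, 2 and 1, so that no translation factor (Eif2s1 at 0.34) and no proteasome gene passed. With generation as a covariate 3 ribosome biogenesis genes and 2 genes of mitochondrial ribosomes rose, and none of the other 5 lists. Without primary tumors the 7 counts were 5, 2, 2, 2, 0, 1 and 0, and with 1 value per series 4, 0, 0, 2, 0, 0 and 1.

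**Figure D3:**
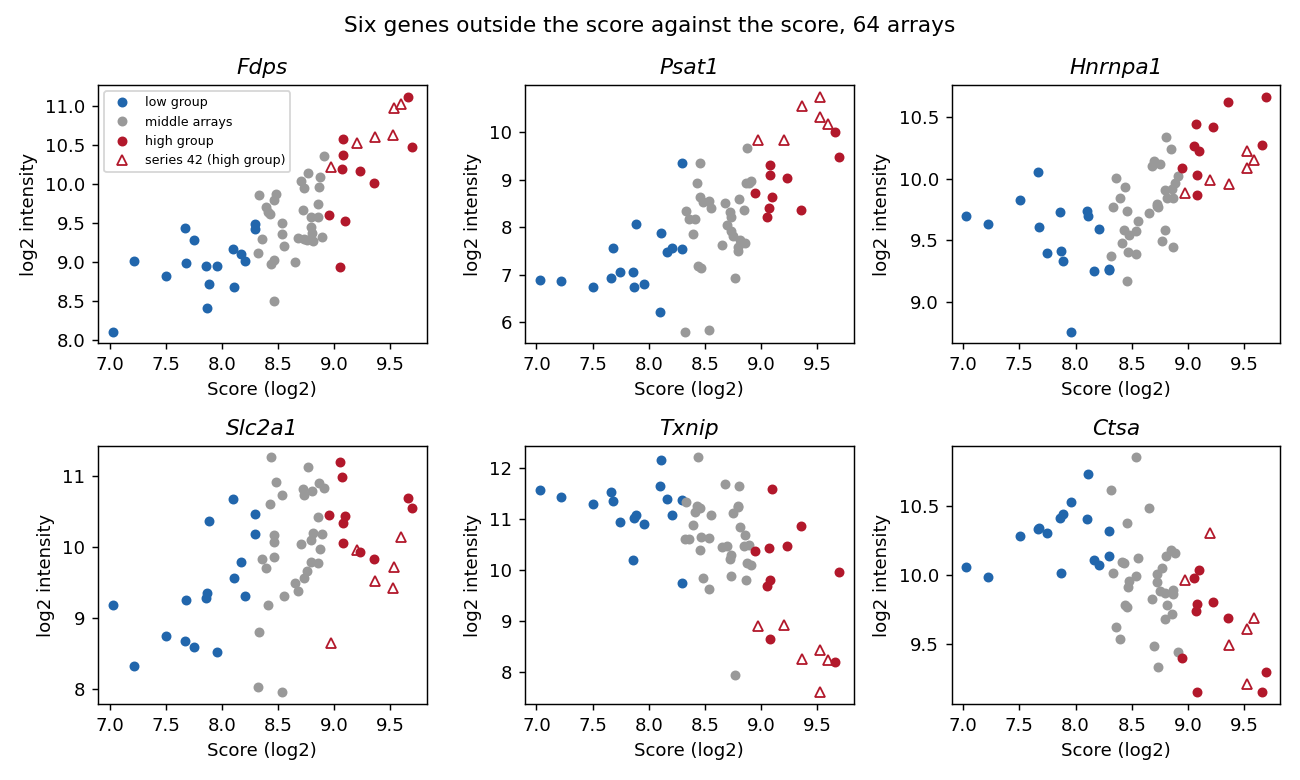
Each panel plots the log2 intensity of 1 gene (y axis) against the score (x axis) for 64 arrays, with low-score tumors in blue, middle arrays in grey, high-score tumors in red and series 42 as open triangles. Fdps, Psat1 and Hnrnpa1 are higher in the high-score tumors and Ctsa is lower, while the Slc2a1 values of series 42, from 8.65 to 10.15, lie among the low-score values.

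Glycolysis and hypoxia genes rose in 16 of 34 cases and none fell, with a median of 0.52. Slc2a1, the main glucose importer, ranged from 8.32 to 10.67 (median 9.30) in low-score tumors and from 8.65 to 11.20 (median 10.10) in high-score tumors. The groups overlapped, with 3 of 16 high-score tumors above the low-score range, and the difference was 0.96 ± 0.25 (SE, adjusted p = 0.00902). Series 42 was low for Slc2a1, at 8.65 to 10.15, against 9.83 to 11.20 in the other high-score tumors, and without it the difference was 1.08. Higd1a, a hypoxia-induced mitochondrial protein, rose by 1.15 ± 0.20 (SE, adjusted p = 0.000127), from 8.41 to 10.64 (median 9.43) in the low-score group to 10.16 to 11.36 (median 10.62).

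Along the glycolytic chain, Hk2 rose by 0.74, Pfkp by 0.92, Pfkl by 0.82, Tpi1 by 0.82, Pgk1 by 0.68, Eno1 by 0.52 and Ldha by 0.66. Slc16a3, which exports lactate, rose by 0.80, and P4ha1, a collagen prolyl hydroxylase, by 0.83. Vegfa, the endothelial growth factor, had a difference of 0.77 that did not pass (adjusted p = 0.0505), and Adm (0.92) and Egln3 (0.77) did not pass either. Without series 42, 14 of the 34 rose, and with the fixed block 12. With generation as a covariate only 1 did, and without primary tumors 3, with medians of 0.42 and 0.37. Slc2a1 then had differences of 0.65 and 0.75, neither past the threshold.

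The letters ACGTG, the core that hypoxia-inducible factors recognise, were searched on both strands in the same windows. They were in 14 of 30 hypoxia and glycolysis promoters (46.7%), against 16.6% of all promoters, 22.6% of those of tested genes and 42.9% of those of nuclear pore and transport genes. The window of Slc2a1 (chr5:138002272-138002521, plus strand, RefSeq GRCr8) shows 1 match in capitals, which starts 51 bases before the gene's start.
Slc2a1: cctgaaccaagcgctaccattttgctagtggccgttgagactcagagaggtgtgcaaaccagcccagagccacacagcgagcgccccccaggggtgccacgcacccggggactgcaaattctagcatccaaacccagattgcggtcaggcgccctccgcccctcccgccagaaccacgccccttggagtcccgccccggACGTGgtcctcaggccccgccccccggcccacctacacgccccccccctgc

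Genes that fell included regulators of glucose uptake and growth signalling. Txnip, which binds thioredoxin and limits glucose uptake, ranged from 9.75 to 12.16 (median 11.33) in low-score tumors and from 7.61 to 11.59 (median 9.31) in high-score tumors. The difference was -1.28 ± 0.27 (SE, adjusted p = 0.00135), with 9 of 16 high-score tumors below every low-score tumor. Without series 42 it was -1.08 and without primary tumors -1.27, both still past the threshold. With generation as a covariate it was -0.97 and did not pass. Txnip was 1 of 3 members of the list of cell cycle inhibitors and quiescence genes that fell out of 23. The others were Klf9 (-0.90) and Ndrg2 (-1.11), which were at -0.59 and -0.66 without series 42 and did not pass. Further Klf9 probe sets gave -0.22 and 0.06. The list's median was -0.03, and none of its members rose. With generation as a covariate 1 of the 23 fell. Pik3ip1, an inhibitor of phosphoinositide 3-kinase, fell by 0.90 (adjusted p = 2.37e-05), and Ypel3 fell by 0.61 (adjusted p = 0.000341).

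Lysosomal genes fell in 5 of 23 cases and none rose, with 20 differences below 0 and a median of -0.21. Ctsa, a lysosomal carboxypeptidase that also protects neuraminidase, ranged from 9.99 to 10.73 (median 10.31) in the low-score and from 9.15 to 10.30 (median 9.69) in the high-score group. In 14 of 16 high-score tumors it was below every low-score tumor, and the difference was -0.64 ± 0.11 (SE, adjusted p = 0.000123). Ctsh (-0.68), Lamp2 (-0.47), Ctsb (-0.31) and Atp6ap1 (-0.29) also fell. A further Lamp2 probe set gave -0.1. Without series 42 only Ctsa passed, at -0.66. The fixed block left 3 members, generation as a covariate 1, and 1 value per series 0.

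A few genes of milk secretion and hormone response fell. Olah, the thioesterase that releases the medium-chain fatty acids of milk, had the largest fall among the genes ranked by the rule for named genes. It ranged from 5.31 to 11.89 (median 10.09) in low-score tumors and from 5.31 to 10.70 (median 5.66) in high-score tumors, 8 of which were at the floor. The difference was -2.32 ± 0.62 (SE, adjusted p = 0.0123), the groups overlapped fully, and without series 42 the value of -1.97 did not pass. Xdh, which milk fat droplets need for secretion, fell by 0.96, so that 2 of 12 milk genes fell. Of 18 hormone receptors and targets, Irs2 (-0.94), Xbp1 (-0.68) and Stat5a (-0.50), the transcription factor of prolactin signalling, fell. None of these 5 passed without series 42, with the fixed block, with generation as a covariate or without primary tumors. Among 25 luminal epithelial genes 24 were lower, with a median of -0.77, but none passed in limma (7 were lower at an unadjusted p below 0.05). That median was -0.41 without series 42, and with the fixed block it was 0.06, with 15 of 25 differences above 0.

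Markers of other cell types gave few calls. None of 21 macrophage, 15 T and NK cell, 17 endothelial, 11 adipocyte, 6 mast cell, 4 red cell or 2 B cell genes rose or fell at the limma threshold. At an unadjusted p below 0.05, 2 of these 76 were higher and 6 lower. Of 37 fibroblast matrix genes Mfap4 (-1.64) and Cxcl12 (-0.98) fell, a share near the 4.21% of all genes that fell. Neither passed the threshold without series 42, and the list's median was -0.24. In the low-score group the mean of the 40 fibroblast genes on the array was 7.39 to 10.28 (median 8.73), and in the high-score group 7.43 to 9.56 (median 8.56). Of 37 tested fibroblast genes 28 were lower in the fit. The defining markers Col1a1 (low-score and high-score medians 10.68 and 11.10), Col3a1 (11.45 and 11.66), Dcn (10.39 and 9.51) and Pdgfrb (7.18 and 6.24) did not move one way, and Pdgfrb was at the floor on 2 arrays of each group. Cd68 (8.30 and 8.73) and Pecam1 (7.53 and 7.46) were above the floor on every array of both groups. Adipocyte Plin1 was at the floor on 12 low-score and 14 high-score arrays. Of 7 granulocyte genes S100a9, a neutrophil calcium-binding protein, rose by 1.56 and Il1b, interleukin-1 beta, by 0.58. Both passed without series 42 (1.94 and 0.54), but no granulocyte gene passed with generation as a covariate or without primary tumors. Both had negative slopes in the middle arrays, -2.10 and -1.15, which did not pass. S100a9 was at the floor on 5 low-score and 4 high-score arrays, so the size of its difference depends on the floor. Of the 7 granulocyte genes 4 were higher and 3 lower, with a median of 0.02.

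The other lists held a few calls each, to be read beside the 6.7% of all genes that rose and the 4.21% that fell. The 1 rise each among antigen presentation and interferon response genes is a share below that 6.7%. Of 28 endoplasmic reticulum stress genes 5 rose, led by Ddit3, a stress-induced transcription factor, at 0.74, Creld2 at 0.47 and Sdf2l1 at 0.44. Xbp1, counted above among the hormone targets, was the member that fell. Without series 42, 3 members rose and none fell, with the fixed block 1 rose, and none passed with generation as a covariate or without primary tumors. Of 22 mesenchymal and invasion genes Cd44, Plau, the urokinase that activates plasminogen (0.73), and Msn, which links the membrane to actin (0.37), rose and Mmp2 fell, none of the 4 past the threshold without series 42. Among 19 interferon response genes Ifit3 rose by 0.38 while Ifi35 fell by 0.40 and Irf9 by 0.38, and none of the 3 passed without series 42, with generation as a covariate or without primary tumors. Of 23 antigen presentation genes RT1-N3 rose by 0.55, did not pass without series 42 (0.46), and is of uncertain identity because class I genes share sequence. The p53 target Zmat3 fell by 0.41, the fatty acid oxidation enzyme Acadvl by 0.41, and the basal list member Sparcl1 by 1.02. Of these 3 Zmat3 passed without series 42, while Acadvl (-0.36) and Sparcl1 (-0.93) did not. Myh1, a skeletal muscle myosin, fell by 0.55, but 1 of its 4 other probe sets gave 0.08. None of 21 immediate early genes passed in limma (2 up and 1 down at an unadjusted p below 0.05).

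Growth factor genes went in both directions. The epidermal growth factor receptor ligands Tgfa and Hbegf rose by 0.84 and 0.65 and Vegfb by 0.56, while the receptor itself, Egfr, fell by 0.85. Egfr was at 5.31 to 6.36 in series 42 and at 5.49 to 8.53 in the other high-score tumors, against 7.64 to 9.08 in low-score tumors. Without series 42 its difference was -0.52 and did not pass, and a further Egfr probe set gave 0. Of these 4 only Tgfa passed without series 42, and it did not pass with series as a fixed block (0.85), with generation as a covariate (0.52) or without primary tumors (0.93). Tgfbr3 fell by 0.61, so 3 of 33 growth factor and receptor genes rose and 2 fell, shares near the 6.7% and 4.21% over all genes. None of the 33 passed with generation as a covariate or without primary tumors.

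**Figure D4:**
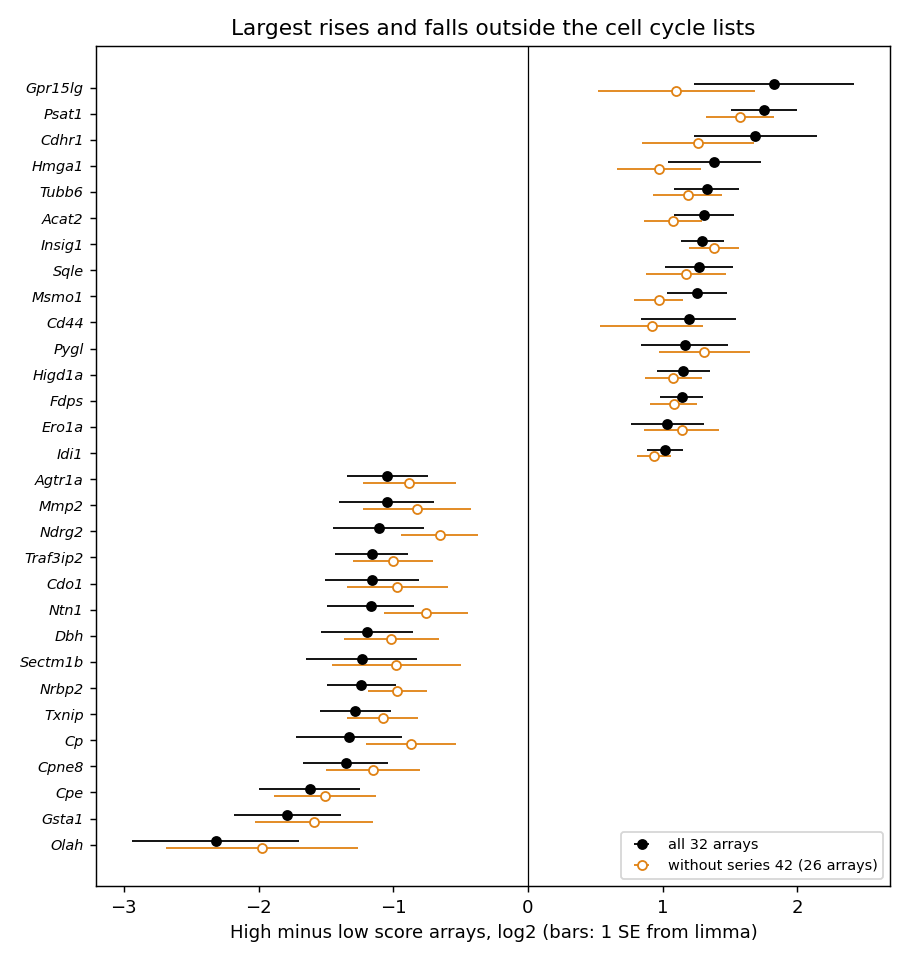
The 15 largest rises and 15 largest falls under the rule for named genes are plotted as high minus low log2 differences (x axis) with 1 SE, for all 32 arrays (black) and for the 26 arrays without series 42 (orange). The rule itself required that the sign hold without each series, and Gpr15lg and Ndrg2 move from 1.83 to 1.10 and from -1.11 to -0.66.

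Some of the 15 largest rises belonged to no list. Gpr15lg, a secreted ligand, was at 11.47 to 12.15 in series 42 and at 5.39 to 11.58 in the other high-score tumors, against 5.31 to 10.08 in low-score tumors. Its difference of 1.83 ± 0.60 (SE, adjusted p = 0.0403) became 1.10 without that series and did not pass. Cdhr1, a cadherin-related protein (1.69), and Hmga1, a chromatin protein of growing cells (1.39), were at 1.26 and 0.97 without series 42 and did not pass either. None of these 3 passed with the fixed block, with generation as a covariate or without primary tumors. Tubb6, a beta-tubulin, rose by 1.33, and Pygl, which releases glucose from glycogen, by 1.16. Both passed without series 42, at 1.19 and 1.31. The Tubb6 call also held with generation as a covariate and without primary tumors, while Pygl was at 0.46 and 0.68 in those fits and did not pass. Ero1a, an oxidase of the endoplasmic reticulum, rose by 1.04 and did not pass with generation as a covariate, at 0.79. Cd44, the hyaluronan receptor, is also among the 15 but belongs to the mesenchymal and invasion list. It rose by 1.19 and was at 10.64 to 11.15 in series 42, and its difference of 0.92 without that series did not pass.

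Among the falls, Gsta1, a glutathione transferase, ranged from 5.48 to 10.52 (median 9.46) in low-score and from 5.31 to 9.01 (median 6.49) in high-score tumors, a difference of -1.79 ± 0.39 (SE, adjusted p = 0.00249). Cpe, which trims peptide hormones, fell by 1.62 and Cpne8 by 1.35. Cp, ceruloplasmin, fell by 1.33, Nrbp2 by 1.24, Sectm1b by 1.23 and Dbh, the enzyme that makes noradrenaline, by 1.19. Without series 42, Gsta1, Cpe, Cpne8, Nrbp2 and Traf3ip2 (-1.16) passed, and Cp, Sectm1b, Dbh, Ntn1 (-1.17), Cdo1 (-1.16), Mmp2 (-1.05) and Agtr1a (-1.04) did not. With generation as a covariate Nrbp2 and Dbh were the 2 of these 12 that passed, and without primary tumors Nrbp2 alone did. Without primary tumors the differences of Gsta1, Traf3ip2, Cdo1 and Agtr1a shrank to -1.19, -0.50, -0.63 and -0.26. With series as a fixed block Dbh was at -0.66 and Nrbp2 at -0.75, neither past the threshold. High-score arrays at the floor, where a difference is at best a lower bound in size, numbered 7 for Dbh, 5 for Nrbp2, 3 each for Cp and Cpne8, and 2 each for Gsta1 and Ntn1. The probe sets of 2 of these genes disagreed: other Ntn1 probe sets gave -0.10 and -0.22, and another Mmp2 probe set gave 0.14.

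A smaller group of genes was called under 5 fits: all 32 arrays, without series 42, with the fixed block, with generation as a covariate and without primary tumors. It held 51 genes that rose and 12 that fell. Sterol genes in it were Insig1, Fdps, Idi1, Msmo1, Acat2 and Tmem97, a sterol-regulated membrane protein whose difference was 0.93 over all 32 arrays. Serine and methyl-cycle genes in it were Psat1, Shmt2 and Ahcy. Among RNA-handling genes were Hnrnpa1, Hnrnpm, Hnrnpd, Hnrnpa3, Snrpa, Snrpa1, Lsm2, Lsm4, Lsm5 and Alyref, an mRNA export adaptor, and the pore genes Nup133, Nup205, Nup107, Nup155 and Nup43. Some of the 51, such as Pmf1, a kinetochore protein, Fzr1, an activator of the anaphase-promoting complex, and Lmnb2, a lamin, work in division although the cell cycle lists do not hold them. Those that fell were Pik3ip1 (-0.90), Synm (-0.85), Dixdc1 (-0.81), Ctsf (-0.78), Rin2 (-0.78), Tmem59 (-0.68), Ctsa (-0.64), Ypel3 (-0.61), Zbtb4 (-0.48), Rnf14 (-0.42), Vmac (-0.41) and LOC100911627 (-0.38). All 63 had slopes of the same sign in the middle arrays.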

How the data were processed

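Gene expression in 65 rat mammary tumors was deposited as Affymetrix probe set intensities on a linear scale, and per the labels' protocols each array took cRNA from 6 µg of total RNA of frozen tissue. The probe summary and the normalization that the authors applied are not given in the sources used here. Arrays were scaled to an equal median over 15866 probe sets that were not controls, values below 39.8 (the pooled 10th percentile) were raised to it, and log2 was taken (the score used unfloored values). For each of 10411 genes the probe set with the highest mean stood for the gene, named through the platform annotation (12748 identifiers matched GRCr8), and 8499 genes with a mean log2 above the lowest 25% of probe sets were tested. A probe set can also detect close relatives of its gene.

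The high-score and low-score groups were compared with limma 3.58.1 in R 4.3.3 (lmFit, eBayes, Benjamini-Hochberg, threshold 0.05, two-sided), with series as a random block (duplicateCorrelation, consensus correlation 0.31). The replicate number is the transplant series, so arrays of 1 number descend from 1 primary tumor per the design text. The same fit was checked on simulated data. Named genes were called genes that kept their sign without each series in turn and in the middle arrays (the 15 largest rises and falls), plus up to 4 called members per list, and 2 in the other direction. Further list members, and genes called under 5 fits, were chosen after their values were seen. The score, the lists and the comparison were chosen with earlier results of these data known. How many arrays and series there are sets the precision, and arrays of 1 series are not independent.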

Additional observations from a re-analysis of the deposited data

Results flagged for a closer look

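The score of the transplant 1 tumor of series 19 was 7.029, the lowest of all arrays that were ranked, while the other 5 tumors of the series had scores of at least 8.166. The gap made up 0.667 of the range of the series, above Dixon's 95% critical value for 6 values. It was the only one of 12 sets of values checked that passed, and chance passes about 1 in 20. The array's median intensity before scaling was 166.81, within the range of the low-score group, and the mean of 14 mast cell genes on it was 7.23, against a low-score median of 6.56. The part of either in the low score was not tested. Without series 19, 425 genes rose and 273 fell in the high-score tumors.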

How the results depend on the processing

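Of the 910 calls, 904 kept their sign when arrays were ranked by the DNA replication list and 899 of 902 tested when all probe sets of a gene were averaged. Every call tested kept its sign in the other alternatives run. The calls were chosen on these same arrays, which most alternatives share, so kept signs were likely beforehand and are not a separate test. How many passed depended on how series and generation were handled. The genes that rose and fell numbered 559 and 351 with series as a random block, 170 and 71 with series as a fixed replicate block, 1400 and 1249 with no replicate block, 68 and 48 with generation as a covariate, 66 and 12 with 1 value per series, and 1943 and 1640 with array weights. A Gapdh 3′ to 5′ covariate, a measure of RNA quality, gave 350 and 189. The slope over 64 arrays gave 1043 and 899, and ranking by the DNA replication list 1179 and 843, where Ctsb turned to 0.023. Of alternatives chosen after seeing the data, leaving out primary tumors gave 122 and 43, leaving out series 42 before ranking gave 420 and 185, and leaving out both gave 51 and 5, from 10 high-score and 9 low-score arrays. Leaving out 1 series gave 245 to 706 rises and 84 to 389 falls. In the middle arrays, the slopes that passed in limma upward and downward numbered 2 and 0 with the fixed replicate block, 0 and 0 with no replicate block (75 and 71 at an unadjusted p below 0.05), 2 and 1 after quantile normalization and 0 and 2 without the filter on dim probe sets. They numbered 0 to 2 and 0 to 4 without 1 series. The cause of these changes was not tested. Settings that left out arrays also had fewer arrays to compare, and the 2 effects were not separated.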
